A study of Homo sapiens with 6 samples.

Results

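The 49 genes described here encode the machinery that copies DNA in S phase, from origin recognition to the chromatin behind the fork. They were chosen by gene symbol for what the encoded proteins do, and 48 of the 49 were found among the 20811 genes of the table, while PRIM2 was not analysed here. Their expression was compared between HuCCT1/CD90+ and HuCCT1/CD90- cells, with 3 libraries each. HuCCT1 is an established line of human intrahepatic cholangiocarcinoma, a cancer of the bile ducts within the liver. HuCCT1/CD90+ cells received a THY1-CMV-GFP lentivirus, THY1 being the gene of the surface glycoprotein CD90, and HuCCT1/CD90- cells received Lenti-CMV-GFP-2A-Puro-Blank, a virus without THY1. Both were transduced at MOI 40 and grown in RPMI with 10% fetal bovine serum, so a virus and GFP were shared by both lines. The THY1 level is set by a viral promoter, and whether a line was 1 clone or a pool is not stated in the sources used here.

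DNA replication starts when the origin recognition complex, with CDC6 and CDT1, loads the MCM2 to MCM7 ring onto origins in G1. In S phase CDC45 and the GINS complex bind the ring and turn it into the active helicase, after which DNA polymerases alpha, delta and epsilon, the clamp PCNA and its loader RFC copy both strands. Many of these genes are transcribed under control of E2F factors and RB family repressors, and they are commonly read as a sign of cycling cells.

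Each library held between 8587634 and 10551516 reads on genes, and the deposited unit, RPM (reads scaled so that every library has the same total), puts 3 reads at 0.284 to 0.349 RPM. THY1 was read 0, 1 and 0 times in HuCCT1/CD90- and 435, 445 and 680 times in HuCCT1/CD90+ cells, at least 179-fold higher. Of the 7 biliary epithelial markers all were detected in every library and 5 rose in HuCCT1/CD90+ cells (3 once libraries were blocked by replicate number), with KRT7 at 3150 to 4027 RPM, while the hepatocyte markers ALB, TTR and CYP3A4 and the leukocyte markers PTPRC and CD3E were at or below the floor of 3 reads. Markers of other cell types above the floor were low and many fell in HuCCT1/CD90+ cells. APOA1, a hepatocyte marker, had 3.70, 4.28 and 1.75 against 0.429, 0.233 and 0 RPM (limma adjusted p = 0.026), a call lost without any single library but HuCCT1/CD90- replicate 3 (adjusted p up to 0.09). LYZ, a leukocyte marker, had 14.8, 10.6 and 10.7 against 0.750, 1.86 and 1.95 RPM (adjusted p = 0.0082, 0.069 with the replicate block). Of 4 fibroblast markers 3 fell (1, PDGFRB, with the block), and of 3 endothelial markers 1, CDH5, fell. The part of these markers in the results below was not tested. Because RNA was taken from the whole culture, fewer cells in S phase and less RNA per cell cannot be told apart.

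In HuCCT1/CD90+ cells 5 of the 48 genes fell and 2 rose, while 41 did not pass the test (limma on log2(RPM + 1), Benjamini-Hochberg adjustment over the whole table, threshold 0.05). The genes that fell were GINS4, MCM3, GINS3, POLE and CHAF1A, and those that rose were RFC2 and POLD2. Among all 20811 genes 9.52% fell and 9.41% rose, so the shares of 10.4% lower and 4.17% higher replication genes were near the background for falls and below it for rises. At an unadjusted p of at most 0.05 with a 1.5-fold difference, the thresholds of the study's methods, 8 genes were lower and 2 higher, against 9.98% lower and 10.1% higher of all genes. The differences ranged from -1.42 to 0.70 on the log2(RPM + 1) scale, with 31 below and 16 above 0. Their median was -0.12, beside 0.00 over all genes and 0.01 over the 8794 genes averaging 10 RPM or more.

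The number of lower genes depended on the genes and the test used, while the number of higher genes stayed at 2 or 3 in the fits compared here. When only genes averaging 10 RPM or more were fitted, 15 replication genes fell and 2 rose, against 20.6% lower and 21.6% higher of these genes. edgeR's quasi-likelihood test on the recovered reads gave 16 lower and 3 higher of 44 genes tested, against 22.2% of all its genes in each direction, and DESeq2 gave 14 lower and 3 higher, against 15.3% and 16.1%. All 5 falls and both rises were among the calls of each of these 3 fits. The genes added as lower by all 3 were CDT1, CLSPN, MCM10, MCM5, MCM6, ORC1, ORC6, RPA2 and UHRF1. In 17 genes (35.4%) every HuCCT1/CD90+ library lay below every HuCCT1/CD90- library, against 17.7% of all genes, and in 4 genes (8.33%) every one lay above, against 17.3%. Among genes averaging 10 RPM or more these shares were 39.0% against 26.0% below, and 9.76% against 26.6% above.

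**Figure D1:**
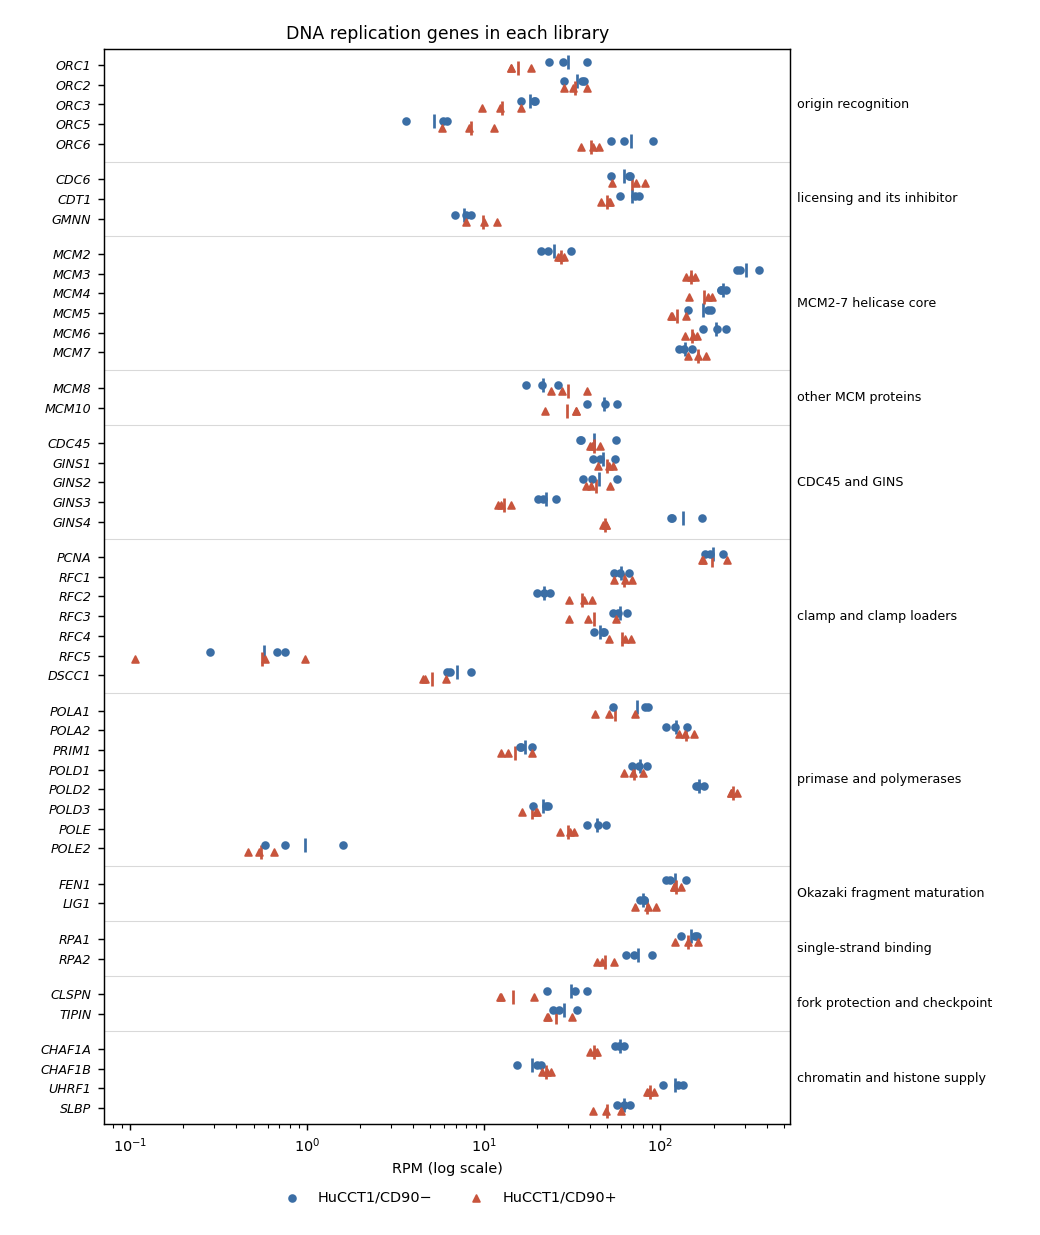
RPM of each replication gene in the 3 HuCCT1/CD90- libraries (circles) and the 3 HuCCT1/CD90+ libraries (triangles) on a log axis, with vertical ticks at the mean of each line and genes grouped by role. The lines are apart for GINS4 and MCM3 on the lower side and POLD2 on the higher side. ORC4 and RPA3, at or below the floor in both lines, and PRIM2 are not drawn.

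Every gene that passed the test and has an entry in RefSeq's promoter table is shown with its promoter because E2F control of replication genes acts there: MCM3, GINS3, POLE and CHAF1A, which fell, and POLD2 and RFC2, which rose. The sequences are the 250 bases before the transcription start in this table, 5' to 3' on the strand of the gene. Capitals mark matches to an E2F motif (TTTGGCGC, TTTCCCGC, TTTCGCGC or TTTGCCGC) or to CCAAT, the motif of the factor NF-Y, on either strand, so that a match on the other strand reads as its reverse complement. A run of both, as in POLE and CHAF1A, is 2 overlapping CCAAT matches.
MCM3, GRCh38.p14 chr6:52284743-52284992, minus strand: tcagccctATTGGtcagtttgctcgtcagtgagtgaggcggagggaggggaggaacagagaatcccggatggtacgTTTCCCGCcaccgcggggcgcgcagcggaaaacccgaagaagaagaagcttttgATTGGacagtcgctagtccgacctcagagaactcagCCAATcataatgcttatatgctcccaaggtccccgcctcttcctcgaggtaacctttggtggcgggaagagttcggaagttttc
GINS3, GRCh38.p14 chr16:58392221-58392470, plus strand: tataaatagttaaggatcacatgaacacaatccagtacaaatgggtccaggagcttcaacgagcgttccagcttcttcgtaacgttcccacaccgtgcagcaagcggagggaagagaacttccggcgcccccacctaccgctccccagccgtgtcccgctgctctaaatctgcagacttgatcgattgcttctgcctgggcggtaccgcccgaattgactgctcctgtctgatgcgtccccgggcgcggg
POLE, GRCh38.p14 chr12:132687343-132687592, minus strand: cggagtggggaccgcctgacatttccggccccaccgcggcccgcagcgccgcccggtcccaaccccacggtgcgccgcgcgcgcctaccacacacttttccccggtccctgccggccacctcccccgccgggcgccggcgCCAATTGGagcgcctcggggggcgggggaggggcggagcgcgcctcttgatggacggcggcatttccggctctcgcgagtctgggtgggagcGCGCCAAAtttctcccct
CHAF1A, GRCh38.p14 chr19:4402390-4402639, plus strand: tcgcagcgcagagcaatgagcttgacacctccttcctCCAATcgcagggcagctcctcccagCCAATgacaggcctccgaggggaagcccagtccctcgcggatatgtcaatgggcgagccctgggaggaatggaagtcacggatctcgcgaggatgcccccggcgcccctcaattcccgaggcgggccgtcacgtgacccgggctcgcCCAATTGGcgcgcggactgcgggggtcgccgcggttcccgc
POLD2, GRCh38.p14 chr7:44123549-44123798, minus strand: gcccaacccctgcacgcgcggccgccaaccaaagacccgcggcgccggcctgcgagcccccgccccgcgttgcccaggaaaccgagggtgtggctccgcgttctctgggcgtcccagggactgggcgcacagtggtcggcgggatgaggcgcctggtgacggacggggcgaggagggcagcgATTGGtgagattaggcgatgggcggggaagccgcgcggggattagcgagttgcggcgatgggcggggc
RFC2, GRCh38.p14 chr7:74254400-74254649, minus strand: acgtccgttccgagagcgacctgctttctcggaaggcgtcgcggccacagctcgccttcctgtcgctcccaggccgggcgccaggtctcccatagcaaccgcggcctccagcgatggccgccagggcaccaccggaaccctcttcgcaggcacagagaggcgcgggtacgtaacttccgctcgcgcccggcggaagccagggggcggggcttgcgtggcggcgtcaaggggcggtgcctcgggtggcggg
The MCM3 stretch holds 1 E2F and 3 CCAAT matches and the POLE stretch 1 and 2. CHAF1A has 4 CCAAT matches, POLD2 has 1, and neither has an E2F match. RFC2 and GINS3 have no match of either kind. An unmarked E2F match that runs past the start begins 5 bases before it in GINS3 and 4 bases before it in MCM3. A match is a string of letters and was not tested for binding.

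In the helicase core 1 of the 6 ring genes, MCM3, passed the test and fell, against 9.52% lower of all genes. MCM3, a subunit of the ring, had 362, 271 and 281 RPM in HuCCT1/CD90- and 149, 139 and 156 RPM in HuCCT1/CD90+ libraries. It fell by 51.4%, from 305 ± 50.0 to 148 ± 8.17 RPM (SD, n = 3), with a log2 difference of -1.03 (SE 0.13, limma adjusted p = 0.011). The lines did not overlap, and the call held under all 18 alternatives run, with adjusted p from 1.2e-09 in DESeq2 to 0.049 with the replicate number as a block. MCM4, MCM5 and MCM6, which sit in the same ring, were also lower in every HuCCT1/CD90+ library but did not pass. MCM4 had 234, 220 and 220 against 196, 187 and 145 RPM (log2 difference -0.36, SE 0.13, limma adjusted p = 0.15). MCM5 had 185, 192 and 144 against 115, 140 and 117 RPM (-0.48, SE 0.15, adjusted p = 0.11), and MCM6 234, 174 and 208 against 160, 153 and 138 RPM (-0.44, SE 0.13, adjusted p = 0.095). edgeR called both MCM5 (adjusted p = 0.015) and MCM6 (adjusted p = 0.018), and MCM4 stayed outside it (adjusted p = 0.057).

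The other ring subunits went with positive values. MCM2 had 31.4, 21.1 and 23.0 against 26.5, 27.1 and 28.6 RPM (log2 difference 0.14, 95% CI -0.29 to 0.57). MCM7 had 151, 136 and 128 against 180, 163 and 144 RPM (0.23, 95% CI -0.07 to 0.52), and in both genes the lines overlapped. The 6 subunits form a ring with 1 copy each, yet their mRNA differences spanned -1.03 to 0.23. Taking off the median difference of genes averaging 10 RPM or more on each gene's chromosome made MCM2 -0.06 and MCM7 -0.30. In the same fit MCM3 was at -0.72, MCM5 at -0.59, MCM4 at -0.49 and MCM6 at -0.45, so that all 6 were negative. Within each library the log2 value of MCM3 minus the mean of the other subunits was 1.39, 1.21 and 1.29 in HuCCT1/CD90- and 0.42, 0.31 and 0.64 in HuCCT1/CD90+ libraries. This ratio, chosen after the values were seen, fell by 0.84 on the log2 scale (two-sided exact permutation p = 0.10, the smallest that 3 against 3 libraries allow). MCM3 was picked from the same values, so this p-value is no independent support. The ratio, from which no chromosome medians were taken off, compares 1 amplicon with the mean of 5 others and is not a ratio of molecules.

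MCM8 and MCM10 lie outside the ring. MCM10, which helps to start the assembled helicase, had 56.9, 38.3 and 48.3 against 33.4, 22.2 and 33.3 RPM, lower in every HuCCT1/CD90+ library (log2 difference -0.68, SE 0.24, limma adjusted p = 0.14). It passed with the replicate block (limma, adjusted p = 0.044) and in edgeR (adjusted p = 0.0071). MCM8, which works in homologous recombination, had 17.3, 21.3 and 26.3 against 27.6, 24.1 and 38.2 RPM with overlapping lines (0.44, 95% CI -0.20 to 1.08).

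CDC45 and the 4 GINS subunits complete the active helicase, and 2 of the 5 fell, against 9.52% of all genes. GINS4 had the most negative difference of all 48 genes, with 172, 117 and 115 RPM in HuCCT1/CD90- and 49.5, 49.0 and 47.6 RPM in HuCCT1/CD90+ libraries. Its mean was 135 ± 32.7 and 48.7 ± 0.980 RPM (SD, n = 3), 2.76-fold lower, with a log2 difference of -1.42 (SE 0.18, limma adjusted p = 0.011). The call was lost only without HuCCT1/CD90+ replicate 3 among the 18 alternatives (limma, adjusted p = 0.052). GINS3 had 21.7, 20.2 and 25.8 against 12.1, 14.3 and 12.6 RPM (-0.75, SE 0.11, limma adjusted p = 0.018), again without overlap. The GINS3 call did not hold with the replicate block (limma, adjusted p = 0.089), nor without HuCCT1/CD90- replicate 1 (0.056), HuCCT1/CD90+ replicate 1 (0.066), HuCCT1/CD90+ replicate 3 (0.074) or replicate 1 of both lines (0.16).

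The partners of these subunits in the same complex had overlapping lines. CDC45, which joins GINS on the ring, had 56.2, 34.9 and 35.5 against 41.0, 45.5 and 40.1 RPM (log2 difference 0.03, 95% CI -0.54 to 0.61). GINS1 had 55.7, 41.4 and 45.3 against 53.6, 51.0 and 44.2 RPM (0.07, 95% CI -0.31 to 0.44), and GINS2 57.1, 36.3 and 41.2 against 51.7, 40.6 and 37.7 RPM (-0.04, 95% CI -0.63 to 0.55). The upper end of the GINS4 interval, -0.94, lay below the lower ends of the intervals of these 3 genes, but the interval of GINS3, -1.05 to -0.44, overlapped it. The log2 value of GINS4 minus the mean of GINS1, GINS2 and GINS3 was 2.04, 1.87 and 1.63 in HuCCT1/CD90- and 0.59, 0.64 and 0.76 in HuCCT1/CD90+ libraries. This difference, also chosen after the values were seen, fell by 1.18 (two-sided exact permutation p = 0.10, the smallest possible here). GINS4 was picked from the same values as the most negative gene, so this p-value is no independent support either.

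Upstream of the helicase, no gene of origin recognition or licensing passed limma's test, with 3 of these 9 genes at an unadjusted p of at most 0.05, against 31.1% of all genes in either direction, and 4 called lower by edgeR, against 22.2% of its genes. ORC1, a subunit that binds ATP and is made anew each cycle, had 38.5, 23.3 and 28.0 against 18.5, 14.2 and 14.2 RPM, without overlap (log2 difference -0.87, SE 0.22, limma adjusted p = 0.066). It passed with the replicate block (limma, adjusted p = 0.045). ORC6 had 90.8, 52.4 and 62.0 against 45.0, 35.4 and 41.8 RPM (-0.70, SE 0.24, limma adjusted p = 0.13), and ORC3 16.3, 19.3 and 19.5 against 16.2, 9.78 and 12.3 RPM (-0.52, SE 0.20, adjusted p = 0.17). In both genes every HuCCT1/CD90+ library was the lower. ORC5 had 5.88, 3.64 and 6.21 against 11.4, 5.82 and 8.25 RPM (0.59, 95% CI -0.22 to 1.40), among the 3 highest differences of the 48 genes but with overlapping lines. ORC2 differed by -0.03 (95% CI -0.46 to 0.39), also with overlap, and ORC4 was listed at 0 in 5 libraries with 1 read in the sixth.

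CDT1 and CDC6, which load the ring together, gave values on opposite sides of 0. CDT1 had 75.9, 72.0 and 59.4 against 51.6, 51.4 and 46.4 RPM, lower in every HuCCT1/CD90+ library (log2 difference -0.46, SE 0.11, limma adjusted p = 0.057, edgeR adjusted p = 0.02). CDC6 had 67.4, 52.5 and 66.3 against 81.7, 53.4 and 73.0 RPM, and the lines overlapped (0.15, 95% CI -0.39 to 0.69). GMNN, whose product geminin inhibits CDT1, had 8.44, 7.92 and 6.89 against 11.9, 7.92 and 10.1 RPM (0.31, 95% CI -0.12 to 0.75). The difference between CDT1 and CDC6 was not tested.

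**Figure D2:**
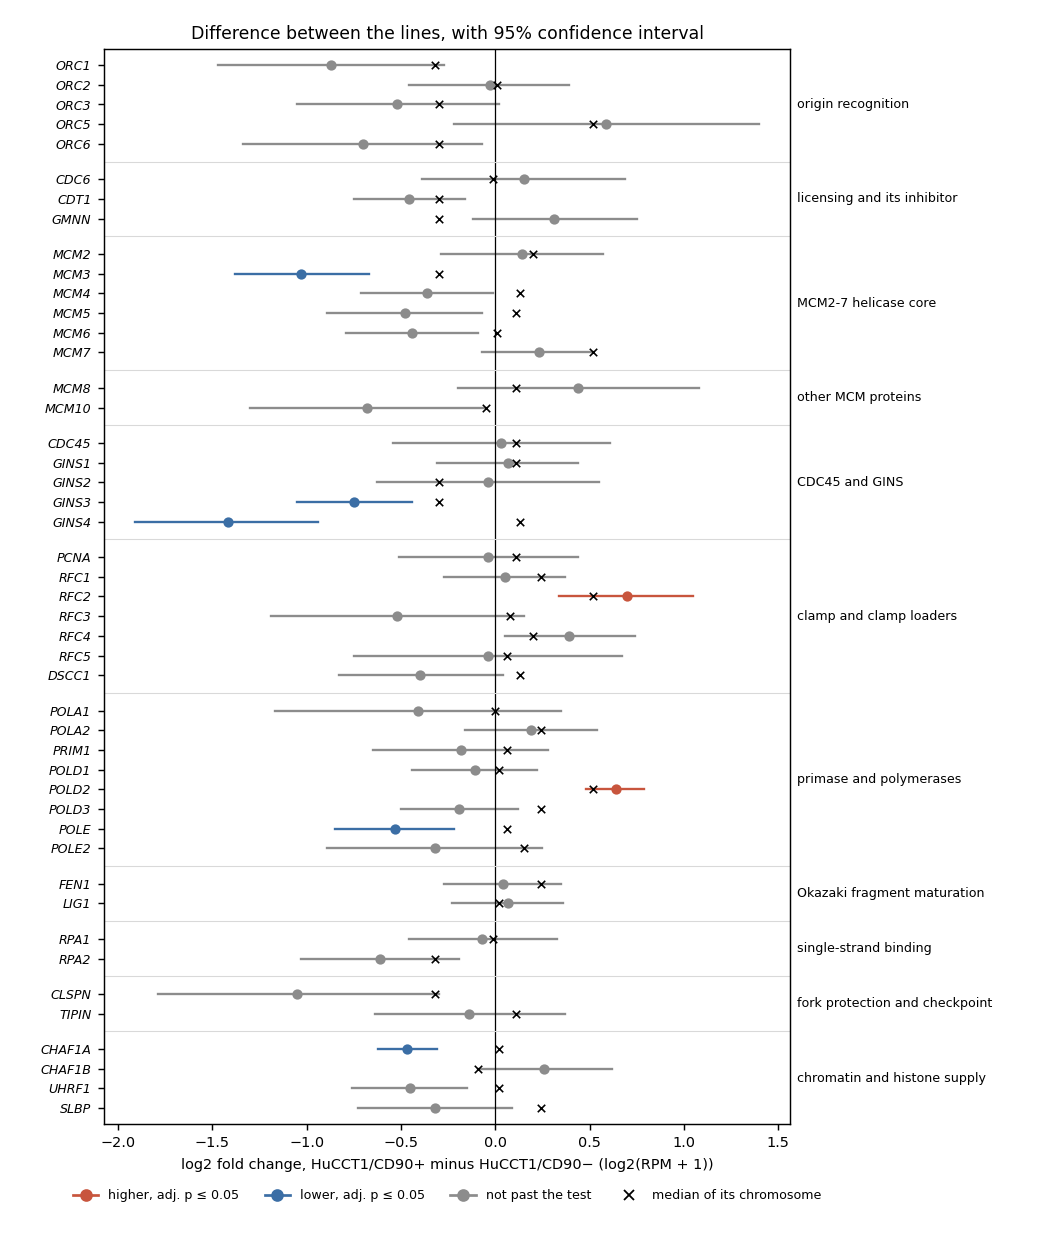
Log2 difference between HuCCT1/CD90+ and HuCCT1/CD90- (log2(RPM + 1)) of each replication gene with its 95% confidence interval from limma, grouped by role, coloured where the adjusted p was at most 0.05. Crosses give the median difference of genes averaging 10 RPM or more on the same chromosome. GINS4 lies at -1.42 against a chromosome median of 0.13, while RFC2 and POLD2 lie at 0.70 and 0.64 against 0.52.

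Of the 8 primase and polymerase genes measured, POLD2 rose and POLE fell, against 9.41% higher and 9.52% lower of all genes. POLD2, an accessory subunit of the lagging-strand polymerase delta, had 158, 177 and 163 RPM in HuCCT1/CD90- and 271, 252 and 251 RPM in HuCCT1/CD90+ libraries. Its mean rose 1.56-fold, from 166 ± 10.3 to 258 ± 11.4 RPM (SD, n = 3, log2 difference 0.64, SE 0.06, limma adjusted p = 0.005), and the lines were well apart. The gene is on chromosome 7, where the median of 404 genes averaging 10 RPM or more was 0.52, and after that median was taken off its difference was 0.11 (limma, adjusted p = 0.58). POLE, the catalytic subunit of the leading-strand polymerase epsilon, had 49.2, 44.4 and 38.6 against 31.0, 32.3 and 26.9 RPM, also without overlap (-0.53, SE 0.12, limma adjusted p = 0.046). Its call was lost without any 1 of the 6 libraries, with adjusted p from 0.053 (without HuCCT1/CD90- replicate 3) to 0.13 (without HuCCT1/CD90- replicate 2) in limma. It was also lost with quantile normalization (limma, adjusted p = 0.059), with a trended and robust variance (0.053) and without replicate 1 of both lines (0.22).

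The remaining polymerase subunits did not pass the test. The catalytic subunit of polymerase delta, POLD1, had 76.0, 84.1 and 68.7 against 62.3, 79.4 and 70.3 RPM (log2 difference -0.11, 95% CI -0.44 to 0.22), and its partner POLD3 19.0, 23.1 and 22.5 against 19.7, 20.0 and 16.4 RPM (-0.19, 95% CI -0.50 to 0.12). POLA1, the catalytic subunit of the priming polymerase alpha, had 84.7, 53.9 and 82.3 against 71.9, 42.6 and 51.4 RPM (-0.41, 95% CI -1.17 to 0.35). POLA2 had 141, 121 and 107 against 154, 128 and 137 RPM (0.19, 95% CI -0.16 to 0.54), and the primase PRIM1 18.8, 16.3 and 16.0 against 18.9, 12.5 and 13.8 RPM (-0.18, 95% CI -0.65 to 0.28). In all 5 genes the lines overlapped, so that within polymerase delta the rise of POLD2 stood beside 2 subunits, POLD1 and POLD3, without a called difference, while POLD4, the remaining subunit, rose as described with the further factors. POLE2 had 1.61, 0.749 and 0.582 against 0.536, 0.466 and 0.651 RPM (-0.32, 95% CI -0.89 to 0.25), with few reads and overlapping lines.

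Among the clamp and its loaders only RFC2 passed limma's test, against 9.41% higher and 9.52% lower of all genes. PCNA, the clamp that holds polymerases on DNA, had 226, 179 and 190 against 239, 172 and 173 RPM (log2 difference -0.04, 95% CI -0.51 to 0.44), and the lines overlapped fully. RFC2, a small subunit of the clamp loader, had 20.0, 21.9 and 23.8 against 37.0, 30.6 and 41.1 RPM, a rise without overlap (0.70, SE 0.13, limma adjusted p = 0.031). RFC2 also lies on chromosome 7 and its difference was 0.17 after the chromosome's median was taken off (limma, adjusted p = 0.44). The call was lost with the replicate block (adjusted p = 0.073) and without any library but HuCCT1/CD90+ replicate 2, with adjusted p from 0.073 (without HuCCT1/CD90- replicate 3) to 0.1 (without HuCCT1/CD90+ replicate 1). RFC4 had 42.0, 47.4 and 47.8 against 68.2, 62.9 and 51.2 RPM, above in every library (0.39, SE 0.13, limma adjusted p = 0.12, edgeR adjusted p = 0.042).

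The other loader genes gave values on both sides of 0. RFC1, the large subunit, had 58.7, 54.4 and 66.5 against 69.0, 54.6 and 62.7 RPM (log2 difference 0.05, 95% CI -0.27 to 0.37), and RFC3 57.2, 53.9 and 65.0 against 56.3, 30.3 and 39.0 RPM (-0.52, 95% CI -1.19 to 0.15). RFC3 was called lower in edgeR (adjusted p = 0.045). DSCC1, part of an alternative loader that also serves sister chromatid cohesion, had 8.53, 6.42 and 6.21 against 6.11, 4.54 and 4.67 RPM. DSCC1 was lower in every HuCCT1/CD90+ library (-0.40, SE 0.16, limma adjusted p = 0.19) and passed with the replicate block (adjusted p = 0.025). RFC5 was near the floor, with 0.284, 0.749 and 0.679 against 0.107, 0.582 and 0.977 RPM (-0.04, 95% CI -0.75 to 0.67).

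Genes that finish the lagging strand and coat single strands gave no call in limma, with 1 of 5 at an unadjusted p of at most 0.05 (31.1% of all genes) and 1 called lower by each of edgeR and DESeq2 (22.2% and 15.3%). FEN1, the flap nuclease, differed by 0.04 (95% CI -0.27 to 0.35), LIG1, the ligase that seals Okazaki fragments, by 0.07 (95% CI -0.23 to 0.36), and RPA1, the large single-strand binding subunit, by -0.07 (95% CI -0.46 to 0.33). In these 3 genes the lines overlapped. The exception was RPA2, the middle subunit of the same complex, with 89.2, 64.2 and 71.0 against 54.4, 46.8 and 43.9 RPM and no overlap (-0.61, SE 0.16, limma adjusted p = 0.066, edgeR adjusted p = 0.0047). RPA3 was listed at 0 in all 6 libraries.

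At the fork and in chromatin, 1 of 6 genes fell, against 9.52% of all genes. CHAF1A, the large subunit of the assembly factor that places new histones behind the fork, had 58.5, 62.4 and 55.2 against 40.2, 43.5 and 42.6 RPM. Its fall of 28.2% was small in size but close among replicates (log2 difference -0.47, SE 0.06, limma adjusted p = 0.01), and it was kept without each single library. Its partner CHAF1B had 15.4, 20.0 and 21.1 against 23.9, 22.7 and 21.3 RPM (0.26, 95% CI -0.09 to 0.62), with every HuCCT1/CD90+ library above. CLSPN, whose product claspin passes the checkpoint signal to CHK1, had 38.4, 22.8 and 33.0 against 19.3, 12.5 and 12.3 RPM. CLSPN differed by -1.05 (SE 0.28), in size next to GINS4, but with a wide spread it missed the threshold (limma, adjusted p = 0.073, edgeR adjusted p = 0.00057). UHRF1, which guides methylation of newly made DNA, was lower in every library too, at 125, 134 and 103 against 92.0, 84.0 and 86.3 RPM (-0.45, SE 0.11, limma adjusted p = 0.062, edgeR adjusted p = 0.015). SLBP, which binds histone mRNA, and TIPIN, a fork protection factor, overlapped between lines (-0.32, 95% CI -0.73 to 0.09, and -0.14, 95% CI -0.64 to 0.37).

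Replicate 1 of both lines was the highest of its line for many replication genes. Of the 41 genes averaging 10 RPM or more, 25 were highest in replicate 1 of the HuCCT1/CD90- libraries and 29 in replicate 1 of the HuCCT1/CD90+ libraries. The median deviation of these genes from the mean of their line was 0.133 in the first and 0.146 in the second of these libraries on the log2 scale, beside -0.027 and 0.012 over all genes averaging 10 RPM or more. Summed over all 48 genes, the HuCCT1/CD90- libraries had 3742, 3168 and 3250 RPM and the HuCCT1/CD90+ libraries 3162, 2805 and 2777 RPM. The sums did not overlap, although HuCCT1/CD90+ replicate 1 was just under HuCCT1/CD90- replicate 2, and their means were 3387 ± 311 and 2915 ± 215 RPM (SD, n = 3), a ratio of 0.861. Genes with high RPM weigh most in this sum, among them MCM3 (305 to 148 RPM), GINS4 (135 to 48.7 RPM) and POLD2 (166 to 258 RPM). The median log2 difference of the 48 genes was -0.12. With the replicate number as a block, 7 genes fell and 1 rose, against 6.40% and 6.72% of all genes. POLD2 remained the 1 rise, 4 of the 5 falls remained, and ORC1, MCM10 and DSCC1 were added. Without the libraries numbered 1 of both lines, a fit added after the data were seen, MCM3, GINS4 and DSCC1 fell (limma, adjusted p = 0.045 for MCM3 and 0.014 for GINS4), against 4.16% of all genes, and no gene rose, against 4.08%, with 2 at an unadjusted p of at most 0.05. POLD2 (limma, adjusted p = 0.055) and CHAF1A (0.12) were among the calls lost there. What replicate 1 had in common in both lines was not tested.

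**Figure D3:**
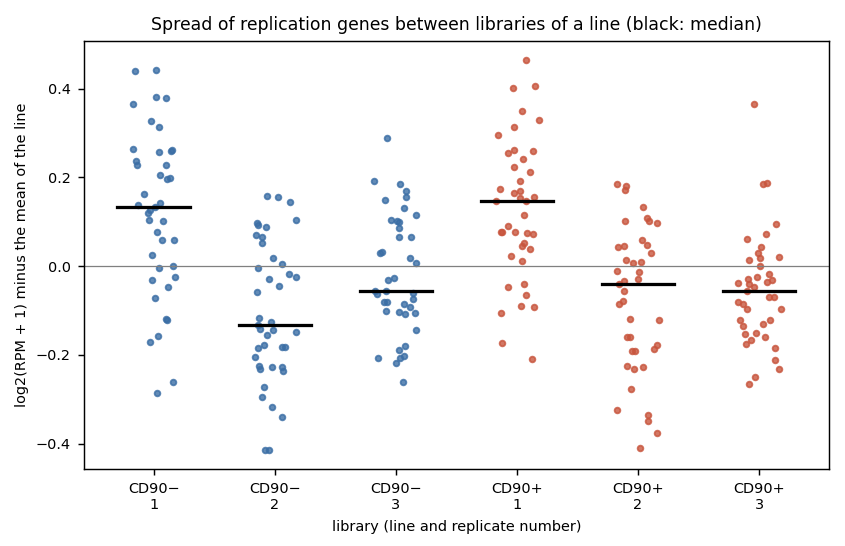
Deviation of the 41 replication genes averaging 10 RPM or more from the mean of their line, in log2(RPM + 1), for each of the 6 libraries, with 1 point per gene and a black bar at the median. Replicate 1 of both lines has a median above 0, 0.133 and 0.146, and the other 4 libraries lie below 0.

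Of the 46 replication genes above the floor, 24 had a difference of the same sign as the median of their chromosome and 22 of the opposite sign. Of these 22, 19 were negative on a chromosome with a positive median, among them all 3 genes on chromosome 8 and all 3 on chromosome 12, and 3 were positive on a chromosome with a negative median. All 4 chromosome 7 genes above the floor (ORC5, MCM7, RFC2 and POLD2) had positive differences, on a chromosome where 85.64% of genes averaging 10 RPM or more were higher in HuCCT1/CD90+ cells. All 3 on chromosome 1 (ORC1, RPA2 and CLSPN) and all 4 on chromosome 16 (ORC6, CDT1, GINS2 and GINS3) had negative differences, on chromosomes with medians of -0.32 and -0.30. MCM3, ORC3 and GMNN lie on chromosome 6, whose median was -0.30, and of these GMNN was positive at 0.31, while MCM3 kept a difference of -0.72 after that median was taken off (limma, adjusted p = 0.0046). GINS4 is on chromosome 8, with a median of 0.13, and its difference there became -1.55 (limma, adjusted p = 3.7e-05). With chromosome medians taken off in all genes averaging 1 RPM or more, 16 replication genes fell and 1, GMNN, rose, against 19.3% and 17.7% of the genes tested. All 5 falls were among these 16, while RFC2 and POLD2 were no longer called. The same minimum without that step already gave 15 lower and 2 higher, against 21.1% and 20.6%, with all 5 falls and both rises among them. Set against that list, taking off the medians lost CDT1 (-0.16, limma adjusted p = 0.45), ORC3 (-0.21, 0.4), ORC6 (-0.40, 0.15) and RPA2 (-0.29, 0.21) as lower genes and added DSCC1, MCM4, POLD3, RFC3 and SLBP. Why genes of a chromosome differed together was not tested.

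**Figure D4:**
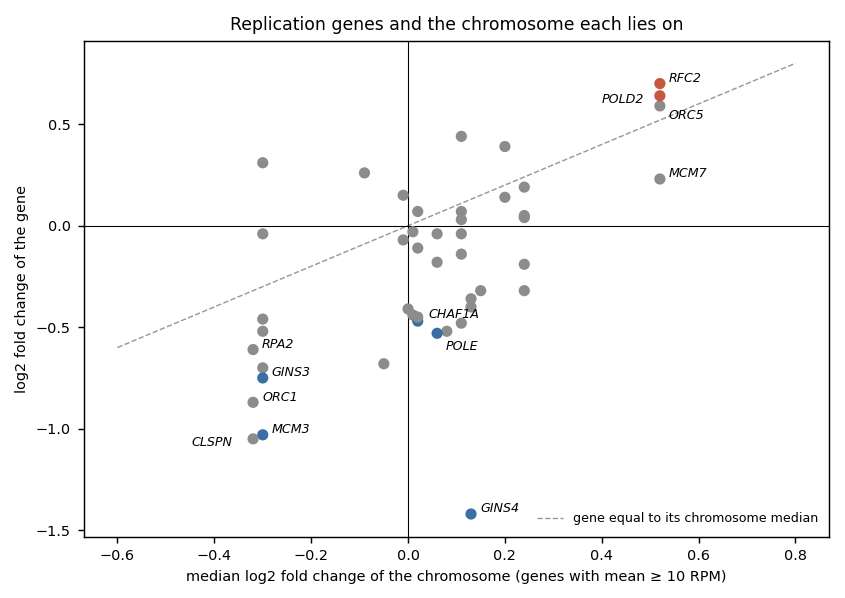
Log2 difference of each replication gene (vertical) against the median log2 difference of genes averaging 10 RPM or more on its chromosome (horizontal), with the line of equality dashed. Red and blue points passed limma's test as higher and lower, and names are given for these and for the genes on chromosomes 1 and 7. RFC2 and POLD2 lie near the line at 0.52, whereas GINS4 and MCM3 lie far below it.

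E2F motifs were found in many of these promoters, while 19 measured genes lacked one, among them RFC2 and POLD2, which rose, and CHAF1A, which fell. RefSeq promoter windows, 250 bases before to 50 after a start, were found for 42 of the 49 genes, and MCM4, MCM5, GINS4, DSCC1, POLD3, RPA2 and RPA3 had no entry. An E2F motif was found in 22 of the 42 genes (52.4%), against 3.99% of the 27305 genes in the promoter table, and CCAAT in 61.9% against 39.72%. The letters TTTGAA, the cell cycle homology region of G2 and mitotic genes, were in none of the 54 windows, against 15.16% of all windows. Of the 22 genes with an E2F motif 3 fell in limma (MCM3, GINS3 and POLE), beside 9.52% lower of all genes, and in 8 of them the lines did not overlap on the lower side, beside 17.7% of all genes and 26.0% of those averaging 10 RPM or more. The 19 measured genes without it held 1 fall (CHAF1A) and both rises, and in 4 the lines did not overlap on each side. The median differences were -0.23 with and -0.04 without a motif, a comparison that was not tested.

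**Figure D5:**
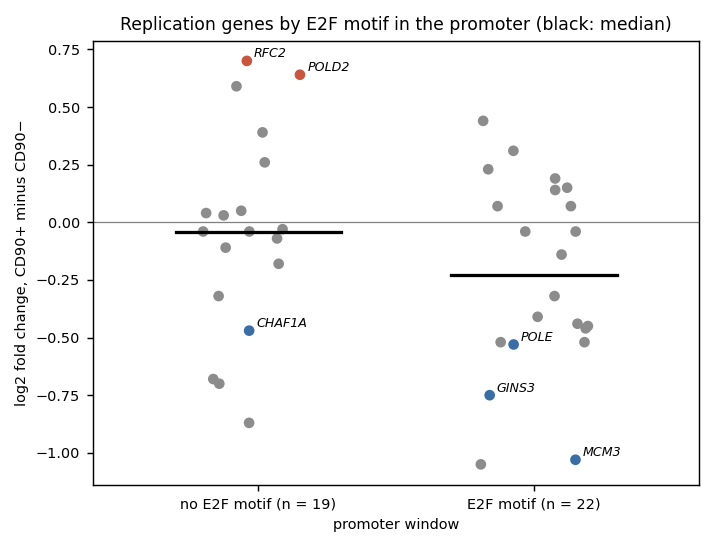
Log2 difference between HuCCT1/CD90+ and HuCCT1/CD90- of replication genes without (19) and with (22) an E2F motif in the promoter window, with 1 point per gene, a black bar at the median and the same colours as above for genes past limma's test. Both groups spread over both sides of 0, and RFC2 and POLD2, which rose, and CHAF1A, which fell, are without the motif.

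Other genes of the same pathways were described from 5 further lists of 93 genes, of which 9 rose and 5 fell in limma, beside 9.41% higher and 9.52% lower of all genes. Among 33 further replication factors 2 rose and 2 fell, with a median of -0.07. POLD4, the small subunit of polymerase delta, had 138, 167 and 143 against 245, 279 and 250 RPM (log2 difference 0.79, limma adjusted p = 0.01), so that it rose as POLD2 did. SSBP1, the mitochondrial single-strand binding protein, rose as well (1.15, adjusted p = 0.017), and it too lies on chromosome 7, but still passed after that chromosome's median was taken off (0.63, limma adjusted p = 0.017). RBBP4, the histone-binding partner of CHAF1A and CHAF1B, fell from 208, 229 and 206 to 126, 111 and 116 RPM (-0.86, limma adjusted p = 0.0032), and WDHD1, which ties polymerase alpha to the helicase, fell by 0.46 (adjusted p = 0.02). WDHD1 (limma, adjusted p = 0.1) and SSBP1 (adjusted p = 0.085) were lost with the replicate block. Both were also lost without HuCCT1/CD90+ replicate 1 or 3, and further without HuCCT1/CD90- replicate 1 for WDHD1 (limma, adjusted p up to 0.08) and without HuCCT1/CD90- replicate 2 for SSBP1 (up to 0.072).

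Of the 13 genes that supply nucleotides 1 fell and 1 rose, beside 9.52% lower and 9.41% higher of all genes. TYMS, which makes thymidylate, fell from 221, 186 and 210 to 107, 100 and 88.4 RPM (log2 difference -1.06, limma adjusted p = 0.0055). GMPS, an enzyme of guanine nucleotide synthesis, rose by 0.60 (limma, adjusted p = 0.046, 0.071 with the replicate block), a call lost without any 1 of the 6 libraries (0.091 to 0.11). The GMPS call was also lost with the median of its chromosome taken off (0.40, limma adjusted p = 0.075). Among 15 E2F and RB family genes, RBL2, a repressor of E2F targets in resting cells, fell (-0.81, limma adjusted p = 0.0032). In the same list MYBL2, a factor of late S phase genes, fell (-0.65, adjusted p = 0.041) and TFDP2, a partner of E2F proteins, rose (0.57, adjusted p = 0.016), but both were lost with the block (0.065 and 0.1). MYBL2 held only without HuCCT1/CD90+ replicate 3 when single libraries were left out (limma, adjusted p up to 0.13), and TFDP2 was lost without replicate 1 of either line (0.053 and 0.058). TFDP2 was also lost with the median of its chromosome taken off (0.37, limma adjusted p = 0.073). The list's median was 0.02.

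Cyclins, kinases and their inhibitors of S phase gave 5 rises and no falls among 12 genes in limma, with 9 at an unadjusted p of at most 0.05 and edgeR giving 5 rises and 3 falls. Of all genes 9.41% rose and 9.52% fell in limma, 31.1% had such an unadjusted p, and 22.2% were called in each direction in edgeR. The genes that rose included both activators and inhibitors. CDKN1A, which encodes the CDK inhibitor p21, had 16.6, 25.1 and 17.3 against 55.0, 64.7 and 54.4 RPM (log2 difference 1.53, limma adjusted p = 0.01). CDKN1B, which encodes p27, had 11.1, 13.5 and 14.4 against 25.8, 32.3 and 28.5 RPM (1.10, limma adjusted p = 0.0092). Of the activators, cyclin E1 (CCNE1) rose by 1.24 (adjusted p = 0.023) and cyclin A2 (CCNA2) by 0.55 (adjusted p = 0.041, 0.09 with the replicate block). The CCNA2 call was also lost with the median of its chromosome taken off (0.31, limma adjusted p = 0.15). When single libraries were left out, CCNE1 passed only without HuCCT1/CD90- replicate 1 (limma, adjusted p = 0.022, otherwise 0.055 to 0.083) and CCNA2 only without HuCCT1/CD90+ replicate 1 (0.025, otherwise up to 0.13). Of 20 mitotic genes none passed limma, with 4 at an unadjusted p of at most 0.05, and edgeR called 6 higher and 2 lower, beside the same shares of all genes. Their median was 0.08. Among 13 reference genes 2 rose and 1 fell, with a median of 0.25. These were TFRC (log2 difference 1.24, limma adjusted p = 0.0085) and GUSB (0.50, adjusted p = 0.035, 0.13 with the replicate block) on the higher side and TBP (-0.70, adjusted p = 0.012, just above the threshold with the block) on the lower side. TBP lies on chromosome 6 and was lost with that median taken off (-0.40, limma adjusted p = 0.059), without replicate 1 of both lines (0.087) and, just above the threshold, without HuCCT1/CD90- replicate 2 or HuCCT1/CD90+ replicate 3. GUSB is another gene of chromosome 7, with a difference of -0.02 after that median was taken off (limma, adjusted p = 0.94), and it passed only without HuCCT1/CD90+ replicate 1 when single libraries were left out (otherwise up to 0.12). Without replicate 1 of both lines the calls of CDKN1A (limma, adjusted p = 0.11), POLD4 (0.1), TFRC (0.1), TYMS (0.058) and RBL2 (0.058) were lost too, while these 5 genes passed in each of the other 17 alternatives.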

How the data were processed

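RNA from 6 HuCCT1 samples, 3 per line, was read with an Ion AmpliSeq Transcriptome panel, 1 short amplicon per gene, on the Ion GeneStudio S5 Prime. Reads were counted by the authors with ampliSeqRNA, and RPM values of 20811 genes were deposited without a filter. The build in the submitters' processing notes is hg19, amplicon positions are not given in the sources used here, and an isoform without the amplicon is not seen. Values were whole multiples of 1 read (100% within 0.05 read), from which reads were recovered. Floors of 3 reads cover counting error only, since PCR copies carry no molecular identifiers, and the confidence intervals of differences are limma's, from the spread between libraries.

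Differences were tested with limma 3.58.1 (eBayes, defaults, two-sided) in R 4.3.3 on log2(RPM + 1), which understates changes of low genes, over all genes, without a block. edgeR 4.0.16 (TMM, filterByExpr) and DESeq2 1.42.0 on recovered reads were alternatives, as were offsets of 0.1 and 5 RPM, means of at least 1 or 10 RPM, quantile normalization, median centring, eBayes set to trend and robust, the replicate block, leaving out each library and taking off chromosome medians. Leaving out both libraries numbered 1 was added after the data were seen. The scripts were tested on simulated data.

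Deviations of same-numbered libraries of the 2 lines correlated with r = 0.209, 0.32 and 0.178, and of differently numbered ones with -0.294 to 0.071, so the numbers pair the libraries by this check, with no other source for it. The main test has no block, as the study's methods name none, and the fit with the block is an alternative. The labels do not say that libraries came from separate cultures, so p-values measure the spread between these libraries, which may be technical. No pair of libraries was a copy of another. The gene lists and members were chosen with earlier results of these data known. All members were named. Those past the test, those with the 3 largest differences in each direction, and the helicase, clamp and polymerase genes were given with every library's value. Of other lists up to 4 genes past the test were named.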

Additional observations from a re-analysis of the deposited data

How the results depend on the processing

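The count of higher replication genes was 2 and became 1 with the replicate block and with chromosome medians taken off, and 0 (limma, with 2 at an unadjusted p of at most 0.05) without replicate 1 of both lines; leaving out single libraries gave 1 to 2. The count of lower genes was 5 and became 15 with genes of a mean of at least 1 RPM, 15 with at least 10 RPM, 10 with median centring, 16 in edgeR, 14 in DESeq2 and 16 with chromosome medians taken off, a fit that also kept only genes averaging 1 RPM or more, which alone gave the 15. Leaving out libraries gave 2 (without HuCCT1/CD90+ replicate 3), 3 (without replicate 1 of either line, or of both) and up to 6. Median centring left 2 higher and moved the split to 10 lower. At the 1.5-fold thresholds the 2 higher genes became 1 with chromosome medians taken off and 0 without replicate 1 of both lines, whose count of genes at an unadjusted p is given above, and the 8 lower genes became 3 to 8 on leaving out libraries, with 4 without HuCCT1/CD90- replicate 1, 5 without HuCCT1/CD90+ replicate 2 and 3 without HuCCT1/CD90+ replicate 3. The median of the members stayed negative in all 18 alternatives, from -0.23 to -0.07. The 14 calls of the other lists became 24 and 29 with the RPM minima of 1 and 10, 22 with median centring, 32 in edgeR, 31 in DESeq2, and 8 to 13 on leaving out libraries. Shares of all genes called rose as well, from 9.52% lower and 9.41% higher in the main fit. They were 21.1% and 20.6% at 1 RPM, 20.6% and 21.6% at 10 RPM, 22.2% each way in edgeR, and 15.3% and 16.1% in DESeq2. For median centring and for single libraries left out, such shares are not given here. With fewer genes tested, or fewer libraries, the adjustment and the spread change by construction; otherwise the cause was not tested.

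With chromosome medians taken off, values changed sign for MCM2 (-0.06), MCM7 (-0.30), CDC45 (-0.08), GINS1 (-0.04), GINS2 (0.26), RFC1 (-0.19), POLA2 (-0.06), FEN1 (-0.20) and the reference gene GUSB (-0.02), in edgeR for CDC45 (-0.01), and without replicate 1 of both lines for GINS2 (0.02), RFC1 (-0.04) and RFC5 (0.05). Of these GUSB alone was called in limma. On leaving out single libraries the log2 differences ranged over 0 in 10 uncalled genes: ORC2 from -0.15 to 0.06, CDC45 from -0.08 to 0.25, GINS1 from -0.02 to 0.19, GINS2 from -0.17 to 0.15, PCNA from -0.19 to 0.06, RFC1 from -0.03 to 0.14, RFC5 from -0.23 to 0.18, FEN1 from -0.03 to 0.15, LIG1 from -0.02 to 0.17 and RPA1 from -0.17 to 0.05. Of 1148 values of 65 named genes over the alternatives, 960 kept direction and side of the threshold, 65 passed it newly, 88 were no longer past it and 35 changed sign. Among the named genes the replicate block changed the calls given in the report and no other.

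RFC5 and POLE2 rest on few reads, and ORC4 and RPA3 give no information beyond being listed at or near 0. With 3 libraries a line an exact permutation test cannot go below 0.10.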
